A study of Mus musculus with 9 samples.

Results

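Replication origin licensing and firing was followed through 10 genes: Orc1 and Orc6 of the origin recognition complex, the loading factors Cdc6 and Cdt1, the Cdt1 inhibitor geminin (Gmnn), the kinase Cdc7 with its activator Dbf4, and the helicase partners Cdc45, Gins1, and Gins2. They were taken by gene name from the 54532 genes listed, each name matched 1 row, and all 10 passed the filter on low values. B.END3 is an immortalized mouse brain endothelial cell line, and porfimer sodium is a photosensitizer that forms reactive oxygen species under red light. RNA was sequenced from 3 libraries each of untreated cells (Ctrl), cells given 10 J/cm2 of light (Ep1), and cells given 20 J/cm2 (Ep2). Both treated groups were first incubated as a monolayer with 300 μg/mL porfimer sodium for 90 min and then lit at 635 nm and 100 mW/cm2. All groups are the same cell line, so they represent 1 line and not brain vessels in an animal. No added transgene or deletion is named for the libraries, which does not show that the line carries none. Libraries with the photosensitizer alone or the light alone were not analysed here, so the effects of drug, light, and their combination cannot be told apart, and the interval between light and lysis is not given in the sources used here.

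Origins of replication are licensed once per cell cycle. In G1, the origin recognition complex binds DNA, and Cdc6 and Cdt1 load the ring-shaped MCM helicase onto it in an inactive form. Geminin accumulates after S phase begins and blocks Cdt1, so that an origin is not licensed again in the same cycle. At the start of S phase, the Cdc7 kinase with Dbf4 and the cyclin-dependent kinases allow Cdc45 and the GINS complex to join MCM, and the helicase then unwinds the DNA. Many of these genes are transcribed in late G1 and S phase by E2F factors, and quiescent cells hold little of their mRNA.

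The files hold one value per gene and library in FPKM, fragments scaled to gene length and sequencing depth, so levels of different genes are compared here per length. Multiplied by gene length, the values of a library were whole multiples of a single step, which gave 16240688 to 19509225 fragments on genes per library, with 265 to 3390 on any of the 10 genes. Mitochondrial genes took 1.90 to 1.99% of fragments in Ctrl, 1.997 to 2.08% in Ep1, and 2.04 to 2.49% in Ep2, and their part in the results was not tested. The cell label was checked against 10 endothelial markers. Only Flt1, a VEGF receptor at 6.90 FPKM in Ctrl and 10.9 in Ep2, and Egfl7, at 2.09 in Ctrl, reached 1 FPKM in 3 libraries. Cdh5 had 0.857 FPKM in Ctrl, Pecam1 0.143, and Kdr 0.0407, and Emcn was at 0 in all libraries. The epithelial keratin Krt8 stood at 640 ± 15.9 FPKM in Ctrl (SD, n = 3) and Krt19 at 174, while Epcam had 0.812, Cdh1 0.0338, and Krt14 0.0199, and Krt7 was at 0. Most of the endothelial markers were thus at or near 0, with Flt1 and Egfl7 the exceptions. Of the epithelial markers, Krt8 and Krt19 were high, Epcam rose to 1.59 to 2.03 FPKM in Ep2, and Cdh1, Krt7, and Krt14 were at or near 0. These levels do not by themselves bear out the endothelial label. The summed FPKM of the 10 endothelial markers was 10.1 to 10.4 in Ctrl, 10.3 to 11.6 in Ep1, and 13.2 to 14.3 in Ep2. That of 6 epithelial markers was 798 to 837, 702 to 788, and 876 to 1040, with 3 of the 6 at 1 FPKM or more in 3 libraries. That of 8 fibroblast and mural markers, 2 of them at that level, was 41.9 to 43.9, 37.3 to 42.2, and 41.0 to 50.03. That of 5 immune markers, 1 of them at that level, was 10.3 to 11.8, 9.91 to 9.97, and 9.90 to 10.9. The part of these markers in the results was not tested. In bulk RNA, fewer cells in a cycle phase and less RNA per cell cannot be told apart.

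At the higher light dose, 9 of the 10 genes fell, led by Cdc6, Gins1, Gins2, and Gmnn, whose mean levels in Ep2 were 40.5%, 45.0%, 47.4%, and 57.8% of Ctrl. Dbf4 alone did not pass the test between Ep2 and Ctrl. The 9 lower calls compare with 29.3% of all 11727 genes tested that were called lower, at an adjusted p below 0.05 in limma. With the added condition of a log2 fold change below -0.6, 4 members were called, against 5.87% of all genes. In the same 9 genes every Ep2 library lay below every Ctrl library, a separation that 32.7% of all genes tested showed. The median log2 fold change was -0.48 for the members and -0.03 for all genes tested. At the lower dose, 1 of the 10 genes was called: Dbf4, which rose, against 11.3% of genes called in either direction and 6.32% called higher.

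**Figure D1:**
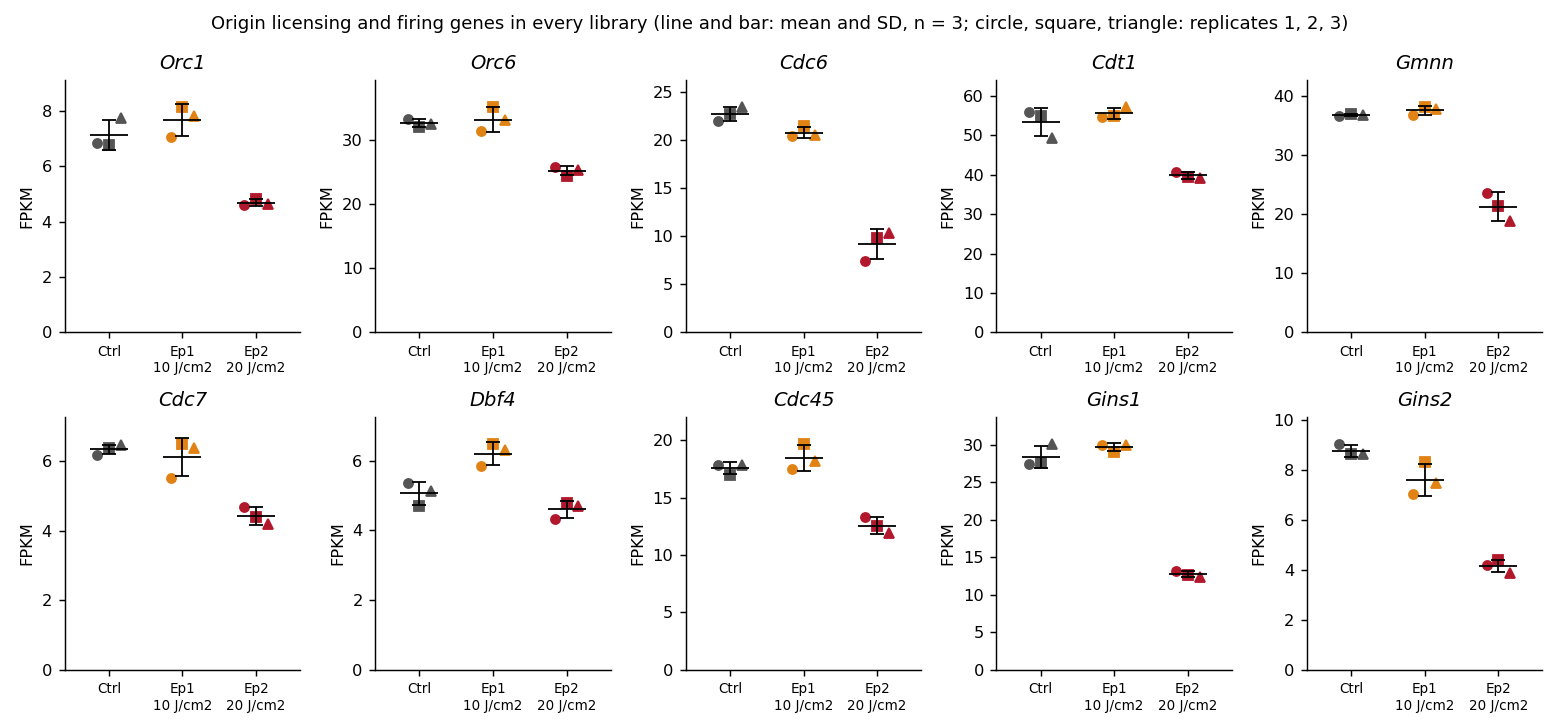
Level of each gene in FPKM (y axis, from 0, a different scale in each panel) in the 9 libraries by group (x axis). Points are libraries, and the horizontal line with its bar is the mean and SD of 3 libraries. In 9 panels all Ep2 points lie below all Ctrl points, and in the Dbf4 panel the Ep2 range of 4.33 to 4.78 overlaps the Ctrl range of 4.71 to 5.36.

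Promoter sequences from RefSeq on GRCm38.p6 were on hand for 7 of the genes: Cdc6, Cdt1, Orc1, Orc6, Cdc45, Cdc7, and Dbf4. Each window runs from 250 bases before to 50 bases after the RefSeq start. Searched on both strands was TTTNNCGC, a short form of the site bound by E2F factors, with N for any base. Cdc6, Cdt1, and Orc1 held 1 match each, 3 of 7 genes, while 5.93% of 27025 genes with a window held it. Orc6, Cdc45, and Cdc7 also fell in Ep2 but held no match, and Gmnn, Gins1, and Gins2 had no window to search. A link between the match and the fall was not tested. The stretches of Cdc6, Cdt1, and Orc1 are shown. They read 5′ to 3′ on the strand of the gene with the matched letters in capitals, which for Orc1 and Cdc6 is the reverse complement of the motif.
Orc1, chr4:108579416-108579445, plus strand: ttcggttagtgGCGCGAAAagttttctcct
Cdt1, chr8:122568036-122568064, plus strand: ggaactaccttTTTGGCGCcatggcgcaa
Cdc6, chr11:98908002-98908031, plus strand: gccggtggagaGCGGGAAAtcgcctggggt
The Cdt1 stretch ends with the window and has 29 bases, against 30 for the others. Its match begins at position 33 of the transcript, counted from 1 at the RefSeq start. The match in Orc1 begins at position -27 and that in Cdc6 at position -138. Both lie inside the gene spans listed in the deposited table, which open upstream of the RefSeq starts. CCAAT, the core of the NF-Y site, occurred in Cdc45, Orc1, and Orc6, and in 41.1% of all genes. TTTGAA, a core of the cell cycle homology region, occurred in Cdc45, Cdc7, and Dbf4, and in 20.2% of all genes. The motifs were searched separately, and a window may hold more than 1 of them. A match is a description of letters, and binding was not measured here.

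The origin recognition complex marks origins, with Orc1 as an ATPase subunit needed for MCM loading and Orc6 as its smallest subunit. Orc1 (ENSMUSG00000028587, chr4:108579423-108614833, plus strand) stood at 6.86, 6.79, and 7.76 FPKM in Ctrl, 7.05, 8.16, and 7.83 in Ep1, and 4.60, 4.82, and 4.66 in Ep2. The Ep2 libraries were below all others, and Ep1 overlapped Ctrl. Its log2 fold change between Ep2 and Ctrl was -0.51 (SE 0.066, adjusted p = 0.00018), and between Ep1 and Ctrl 0.09 (SE 0.066, adjusted p = 0.375). Orc6 (ENSMUSG00000031697, chr8:85299632-85308278, plus strand) measured 33.2, 31.9, and 32.4 FPKM in Ctrl, 31.3, 35.1, and 33.0 in Ep1, and 25.8, 24.4, and 25.3 in Ep2. Again Ep2 was lowest without overlap, while the Ep1 libraries enclosed those of Ctrl. Orc6 fell by 0.36 on the log2 scale between Ctrl and Ep2 (SE 0.048, adjusted p = 0.000235), the smallest fall among the 9 called genes.

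Of 6 other genes of the complex and its partners, 2 fell in Ep2 and 4 did not pass the test, a share near the 29.3% of all genes called lower, with a list median of -0.09. Lrwd1, which holds the complex on chromatin, fell by 0.53 on the log2 scale (adjusted p = 7.85e-05), and the subunit Orc2 by 0.47 (adjusted p = 0.000959). Orc3, Orc4, and Orc5 had log2 fold changes of 0.02, -0.15, and -0.03 (adjusted p = 0.737, 0.0877, and 0.667), and the histone acetyltransferase Kat7 had 0.06 (adjusted p = 0.281). Of the 6 subunits, Orc1, Orc2, and Orc6 were thus called lower and Orc3, Orc4, and Orc5 were not, and the difference between these sets was not tested. The split was not clean, since all Ep2 libraries of Orc4 lay below those of Ctrl, as in 32.7% of all genes. Orc4 was also called lower in Ep2 with Ep1 (-0.22, limma, adjusted p = 0.0221), as were 25.2% of all genes.

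Cdc6 and Cdt1 bring the MCM helicase to the origin recognition complex, and geminin binds Cdt1 and stops loading. Cdc6 (ENSMUSG00000017499, chr11:98907801-98923940, plus strand) stood at 22.0, 22.7, and 23.5 FPKM in Ctrl, 20.4, 21.4, and 20.5 in Ep1, and 7.46, 9.83, and 10.3 in Ep2. The groups did not overlap, with Ep1 just below Ctrl and Ep2 far below both. Between Ep2 and Ctrl the log2 fold change was -1.23 (SE 0.094, adjusted p = 1.18e-05), and 0.239% of all genes tested had a lower value. Between Ep1 and Ctrl it was -0.12 (95% interval -0.34 to 0.09, adjusted p = 0.418). The spread among the 3 Ep2 libraries was wide for this gene, with a coefficient of variation of 16.5% where counting alone gives 3.40%.

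Cdt1 (ENSMUSG00000006585, chr8:122568015-122573554, plus strand) was the most abundant of the 10 genes, at 56.0, 55.0, and 49.3 FPKM in Ctrl, 54.6, 54.8, and 57.2 in Ep1, and 40.7, 39.4, and 39.2 in Ep2. Ctrl and Ep1 overlapped, and all Ep2 libraries were lower. The log2 fold change in Ep2 was -0.41 (SE 0.051, adjusted p = 0.000149). Geminin, encoded by Gmnn (ENSMUSG00000006715, chr13:24751845-24761923, minus strand), had 36.7, 37.1, and 36.8 FPKM in Ctrl, 36.8, 38.2, and 37.8 in Ep1, and 23.7, 21.4, and 18.8 in Ep2. The coefficient of variation was 0.549% in Ctrl and 11.4% in Ep2, where counting alone gives 3.11% and 4.19%. The Ctrl value is thus below what counting gives and does not measure a true spread. Between Ctrl and Ep2, Gmnn fell by 0.77 on the log2 scale (SE 0.069, adjusted p = 2.54e-05). In Ep1 the log2 fold change was 0.06 for Cdt1 (adjusted p = 0.498) and 0.03 for Gmnn (adjusted p = 0.813).

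The inhibitor thus fell further than the factor it inhibits. A ratio of 2 genes within a library does not depend on how that library was scaled, and 4 such ratios of partners were tested. The log2 ratio of Cdt1 over Gmnn was 0.61, 0.57, and 0.42 in Ctrl, 0.57, 0.52, and 0.60 in Ep1, and 0.78, 0.88, and 1.06 in Ep2. All Ep2 libraries were above all others, and the linear ratio of the group means of log2 values moved from 1.45 in Ctrl to 1.88 in Ep2. The exact permutation test over the 280 partitions of the 9 libraries gave an adjusted p of 0.0286 (unadjusted p = 0.0286, two-sided by construction, smallest p allowed 0.00357). It compares the 3 groups at once, since 3 libraries against 3 cannot reach 0.05 alone. The 4 pairs were set by role, but the members were chosen with earlier results of these data known. With a group apart from all other libraries, a p this small follows almost by itself. The p-values of the 4 ratios therefore describe that separation and add little to it. Without Ctrl replicate 2 the adjusted p was 0.0643, without Ep1 replicate 1 or any one Ep2 library 0.0571, and without Ep1 replicate 3 it was 0.0524.

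Cdc7 is the kinase that phosphorylates MCM to start firing, and Dbf4 is the subunit that activates it. Cdc7 (ENSMUSG00000029283, chr5:106964322-106984432, plus strand) stood at 6.19, 6.37, and 6.45 FPKM in Ctrl, 5.50, 6.49, and 6.37 in Ep1, and 4.69, 4.38, and 4.19 in Ep2. Ep2 was below all other libraries, and Ep1 spanned Ctrl. Its log2 fold change in Ep2 was -0.44 (SE 0.065, adjusted p = 0.000427), and in Ep1 it was -0.05 (adjusted p = 0.681).

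Dbf4 (ENSMUSG00000002297, chr5:8396973-8422716, minus strand) was the member called in Ep1 and not in Ep2. It had 5.36, 4.71, and 5.13 FPKM in Ctrl, 5.83, 6.47, and 6.29 in Ep1, and 4.33, 4.78, and 4.71 in Ep2. All Ep1 libraries were above all Ctrl libraries, and Ep2 overlapped Ctrl from below. Between Ep1 and Ctrl the log2 fold change was 0.25 (SE 0.062, adjusted p = 0.0354), and 92.7% of all genes tested had a lower value. Leaving out a library kept the log2 fold change between 0.20 and 0.28 but often lost the call: its adjusted p was 0.0643, 0.137, and 0.0657 without Ctrl replicate 1, 2, or 3, 0.0619, 0.0992, and 0.114 without Ep1 replicate 1, 2, or 3, and 0.0510 without Ep2 replicate 2. Over all 17 alternatives the adjusted p ranged from 0.0131 to 0.137 and was above 0.05 in 10 of them. Between Ep2 and Ctrl the log2 fold change was -0.11 (95% interval -0.25 to 0.03, adjusted p = 0.15), and between Ep2 and Ep1 it was -0.36 (SE 0.062, adjusted p = 0.00137).

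The log2 ratio of Cdc7 over Dbf4 was 0.21, 0.44, and 0.33 in Ctrl, -0.08, 0.00, and 0.02 in Ep1, and 0.12, -0.12, and -0.17 in Ep2. Every library of both treated groups lay below every Ctrl library, and Ep1 and Ep2 overlapped. As a linear FPKM ratio it was 1.25 in Ctrl, 0.986 in Ep1, and 0.960 in Ep2 (exact permutation test, adjusted p = 0.0286). This ratio rests on the listed gene lengths, 4183 bases for Cdc7 and 8728 for Dbf4. In Ctrl the fragments numbered 499, 521, and 501 for Cdc7 and 902, 804, and 831 for Dbf4. Only the change of the ratio between groups is therefore read here. The adjusted p was 0.0714 and 0.0667 without Ctrl replicate 2 or 3, 0.0571 and 0.0524 without Ep1 replicate 1 or 3, and 0.0619 and 0.0571 without Ep2 replicate 2 or 3.

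**Figure D2:**
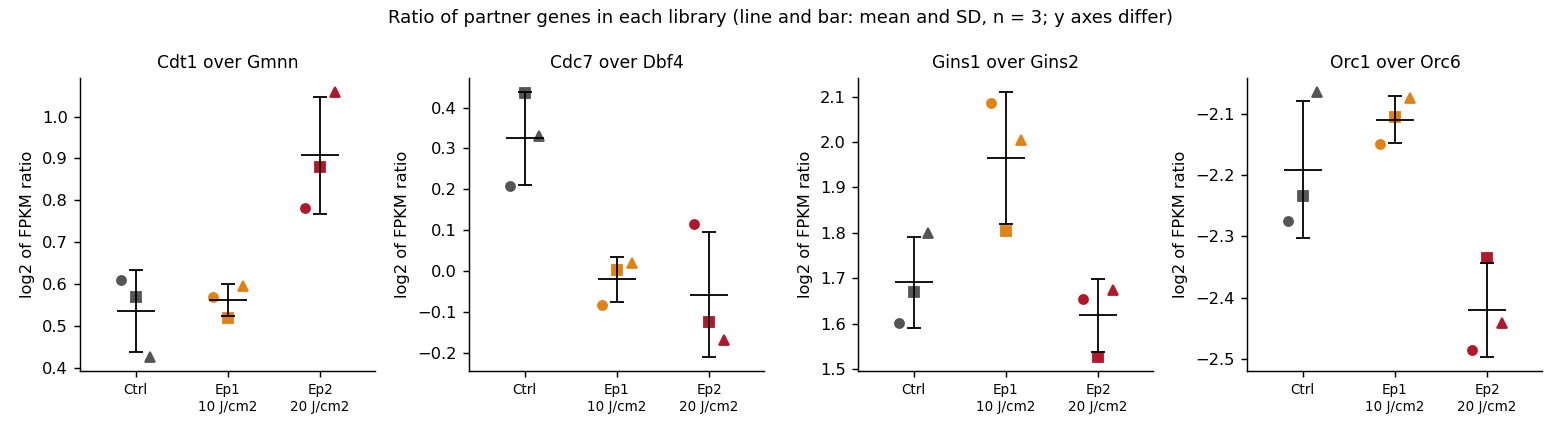
Log2 ratio of the FPKM values of partner genes (y axis, a different range in each panel) in each library by group (x axis). Points are libraries, and the line with its bar is the mean and SD of 3 libraries. Ep2 lies highest for Cdt1 over Gmnn (0.78 to 1.06), both treated groups lie below Ctrl for Cdc7 over Dbf4, Ep1 lies highest for Gins1 over Gins2, and Ep2 lies lowest for Orc1 over Orc6.

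Cdc45 and the GINS complex, to which Gins1 and Gins2 belong, join MCM to form the active helicase. Cdc45 (ENSMUSG00000000028, chr16:18780447-18811987, minus strand) stood at 17.9, 17.0, and 17.9 FPKM in Ctrl, 17.5, 19.7, and 18.2 in Ep1, and 13.3, 12.5, and 11.9 in Ep2. Ep2 was lowest without overlap, and Ep1 overlapped Ctrl. The log2 fold change in Ep2 was -0.45 (SE 0.057, adjusted p = 0.000161), and in Ep1 it was 0.07 (adjusted p = 0.47).

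Gins1 (ENSMUSG00000027454, chr2:150905400-150931280, plus strand) had 27.5, 27.5, and 30.1 FPKM in Ctrl, 29.9, 29.1, and 30.02 in Ep1, and 13.2, 12.7, and 12.4 in Ep2. Ctrl and Ep1 overlapped, and Ep2 stood far below both. The log2 fold change in Ep2, -1.09, had the smallest adjusted p of the 10 genes (SE 0.047, adjusted p = 1.72e-06). Gins2 (ENSMUSG00000031821, chr8:120578633-120589304, minus strand) measured 9.05, 8.65, and 8.64 FPKM in Ctrl, 7.05, 8.32, and 7.48 in Ep1, and 4.19, 4.40, and 3.90 in Ep2. The 3 groups did not overlap, with Ep1 between Ctrl and Ep2. Between Ep2 and Ctrl the log2 fold change was -0.92 (SE 0.064, adjusted p = 7.58e-06), and between Ep1 and Ctrl -0.18 (95% interval -0.33 to -0.04, adjusted p = 0.0927), which passed only with voom on the recovered fragments (adjusted p = 0.0442). Gse1 overlaps Gins2 by 2758 bases on the other strand, and the strand setting of the counting is not given in the sources used here, so fragments in the overlap cannot be told apart.

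The log2 ratio of Gins1 over Gins2 averaged 1.69 ± 0.10 (SD, n = 3 libraries) in Ctrl, 1.97 ± 0.15 in Ep1, and 1.62 ± 0.08 in Ep2. All Ep1 libraries were above those of the other groups, although the lowest Ep1 value and the highest Ctrl value both rounded to 1.80, and Ep2 overlapped Ctrl. The log2 ratio of Orc1 over Orc6 averaged -2.19 ± 0.11, -2.11 ± 0.04, and -2.42 ± 0.08, with all Ep2 libraries below all others. Exact permutation tests gave an adjusted p of 0.0286 for each, with unadjusted p of 0.0286 and 0.0143. The first lost this call without any one library except Ep1 replicate 2, with an adjusted p from 0.05 to 0.0893. The second lost it without Ctrl replicate 2, Ep1 replicate 1 or 3, or any one Ep2 library, with an adjusted p from 0.0524 to 0.0643.

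Which dose brought the fall was read from Ep2 against Ep1. All 10 genes were lower in Ep2, against 25.2% of all genes called lower in that comparison, and none of their ranges overlapped, against 30.3% of all genes with Ep2 lower throughout. The log2 fold changes were -1.16 for Gins1, -1.11 for Cdc6, -0.80 for Gmnn, -0.74 for Gins2, and -0.61 for Orc1, the 5 genes below -0.6, against 3.97% of all genes. Orc1 lay closest to that threshold, and 4 genes were below it without Ep1 replicate 2, Ep1 replicate 3, or Ep2 replicate 1. Cdc45, Cdt1, Cdc7, Orc6, and Dbf4 followed at -0.52, -0.47, -0.39, -0.38, and -0.36, with adjusted p between 0.000115 and 0.00137. For Dbf4 this was not a fall from Ctrl. Its log2 fold change was -0.11 in Ep2 with Ctrl (limma, adjusted p = 0.15) and 0.25 in Ep1 with Ctrl, a call that was often lost. Between Ep1 and Ctrl none of the 10 passed the fold threshold, against 0.793% of all genes, and Cdc6 and Gins2 lay below Ctrl in all libraries, against 20.5% of all genes. Dbf4 lay above Ctrl in all Ep1 libraries, against 20.8% of all genes. Both comparisons with Ctrl use the same Ctrl libraries, and both comparisons that involve Ep1 use the same Ep1 libraries. The number of genes called in Ep1 over the whole table moved when single libraries were left out, from 1324 with all to 392 and 193 without Ctrl replicate 1 or 2, to 378, 842, and 191 without Ep1 replicate 1, 2, or 3, and to 2183 without Ep2 replicate 1.

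**Figure D3:**
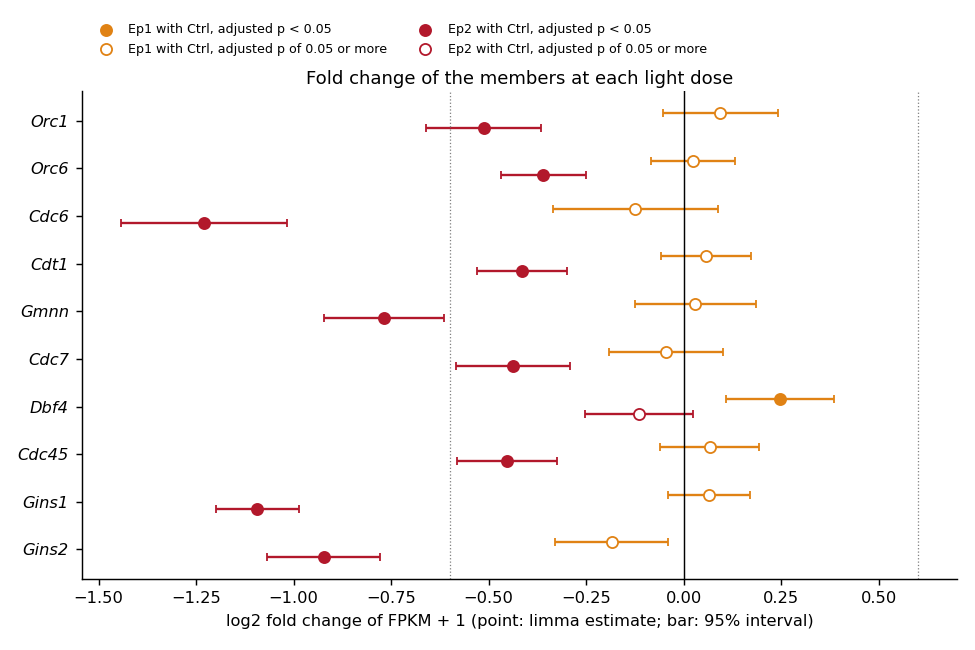
Log2 fold change of FPKM + 1 with its 95% interval (x axis) for each gene (y axis) in Ep1 with Ctrl and Ep2 with Ctrl, from limma. Filled points passed an adjusted p of 0.05, and dotted lines mark -0.6 and 0.6. The Ep2 values run from -1.23 for Cdc6 to -0.11 for Dbf4, and the Ep1 values from -0.18 for Gins2 to 0.25 for Dbf4.

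The order of levels among the genes changed with the unequal falls. In Ctrl the mean FPKM descended from Cdt1 (53.4) through Gmnn (36.8), Orc6 (32.5), Gins1 (28.4), Cdc6 (22.7), Cdc45 (17.6), Gins2 (8.78), Orc1 (7.13), and Cdc7 (6.33) to Dbf4 (5.07). No ranges of neighbours in that order overlapped. In Ep1 the ranges of Orc1 and Gins2 overlapped, as did those of Dbf4 and Cdc7. In Ep2 Orc6 (25.1) stood above Gmnn (21.3), and Cdc6 (9.20) stood below Cdc45 (12.6). There Gins1 and Cdc45 overlapped, as did each neighbouring pair of Orc1, Dbf4, Cdc7, and Gins2, at 4.69, 4.60, 4.42, and 4.16 FPKM. The most abundant gene had 10.5 times the mean level of the least abundant in Ctrl, 9.07 times in Ep1, and 9.57 times in Ep2.

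Several of the genes start close to another gene on the opposite strand, which offers a comparison within a short stretch of DNA. The stretch between the listed starts of Orc1 and Prpf38a, a spliceosome gene, has 86 bases. The stretch between the starts of Dbf4 and Slc25a40, a mitochondrial carrier gene, has 133 bases, of which 81.2% are G or C. Both are printed 5′ to 3′ on the strand of the origin gene, to show how little sequence lies between the members and their neighbours, and capitals in the first mark CCAAT.
Orc1 and Prpf38a, chr4:108579337-108579422, plus strand: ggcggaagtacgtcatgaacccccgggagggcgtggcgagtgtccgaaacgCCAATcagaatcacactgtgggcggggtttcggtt
Dbf4 and Slc25a40, chr5:8422717-8422849, minus strand: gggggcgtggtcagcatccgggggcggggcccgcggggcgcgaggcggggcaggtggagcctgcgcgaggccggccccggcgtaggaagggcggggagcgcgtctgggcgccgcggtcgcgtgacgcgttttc
Slc25a40 averaged 0.616 FPKM in Ctrl, below the filter, and was not tested. Gm10614, which starts 227 bases from Gins2, and Gm12743, which overlaps Orc1, were also below it. Gm20388, whose span covers Cdt1 and Gins2, was at 0 in all libraries.

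The neighbours of 4 members were measured well enough to compare, and none fell as far as its member. Ufd1, a factor of ubiquitin-dependent protein removal, starts 208 bases from Cdc45 and averaged 17.3 ± 0.712 FPKM (SD, n = 3 libraries) in Ctrl and 18.8 ± 0.135 in Ep2, with a log2 fold change of 0.11 (adjusted p = 0.0501). Prpf38a averaged 10.2 ± 0.327 FPKM and 8.88 ± 0.192, and fell by 0.18 on the log2 scale (adjusted p = 0.00555), less than Orc1. Vps35, a retromer subunit that starts 170 bases from Orc6, averaged 21.5 ± 1.26 FPKM and 26.6 ± 1.99 with a rise of 0.29 in log2 units (adjusted p = 0.00262). Abhd12, a lipid hydrolase that starts 659 bases from Gins1, averaged 25.6 ± 1.19 FPKM and 27.0 ± 0.635, with a log2 fold change of 0.08 (adjusted p = 0.178). Of the 4, then, 1 fell, 1 rose, and 2 did not pass the test. With median centring or with the gene length correction, Ufd1 (0.16, adjusted p = 0.0113 and 0.0116) and Abhd12 (0.12 and 0.16, adjusted p = 0.0426 and 0.0138) passed it as higher, as did Ufd1 with voom on the recovered fragments (0.14, adjusted p = 0.0388) and without Ctrl replicate 3 (0.14, adjusted p = 0.03). Cdc45 and Ufd1 overlap by 209 bases and Orc6 and Vps35 by 171 bases, where the fragments cannot be told apart.

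The log2 ratio of each member to its neighbour was compared after the data had been seen. The ratio of Gins1 over Abhd12 was 0.05, 0.08, and 0.31 in Ctrl, 0.11, 0.11, and 0.08 in Ep1, and -0.996, -1.11, and -1.14 in Ep2. The Ep2 mean was lower than the Ctrl mean by 0.68 for Orc6 over Vps35, 0.60 for Cdc45 over Ufd1, and 0.40 for Orc1 over Prpf38a. For all 4 pairs every Ep2 library lay below every other library, and Ep1 overlapped Ctrl. The exact permutation test over 280 partitions gave an adjusted p of 0.0321 for each pair, and 0.0190 to 0.0357 with any one library left out. The fall of the members and the values of their neighbours were known beforehand. With Ep2 apart in every pair, the test could hardly give another outcome, so these p-values add no support.

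**Figure D4:**
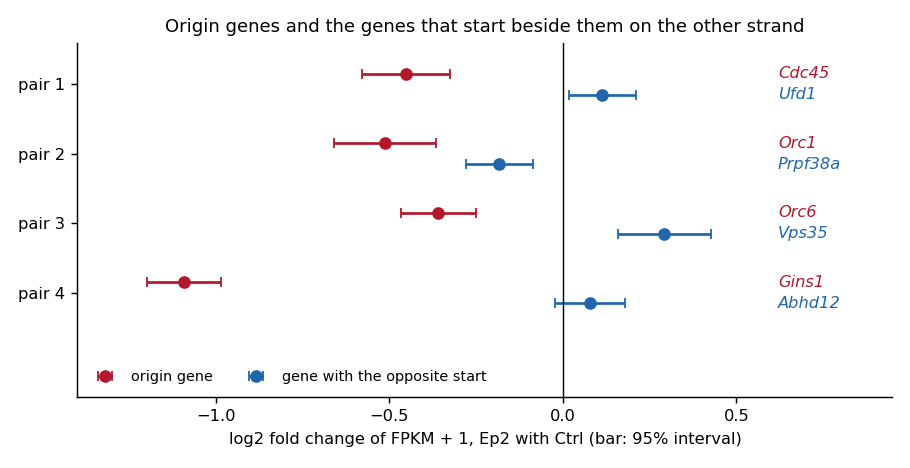
Log2 fold change of FPKM + 1 with its 95% interval in Ep2 with Ctrl (x axis) for 4 origin genes and the genes that start beside them on the opposite strand (y axis, pair by pair). The origin genes lie between -1.09 and -0.36, and their neighbours between -0.18 and 0.29.

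The other genes of replication initiation were described from 6 lists with 42 genes, all of which passed the filter. In Ep2, 34 fell, 1 rose, and 7 did not pass the test, and the median over the 42 was -0.46 on the log2 scale. Over all genes tested, 29.3% were called lower in Ep2. In Ep1, 1 fell and 4 rose, a share near the 11.3% of all genes called. In Ep2 against Ep1, 36 were lower and none was higher, where 25.2% of all genes were called lower. Of 8 genes of the MCM helicase and its partners, 7 fell in Ep2, with log2 fold changes of -1.06 for Mcm7, -0.95 for Mcm2, and -1.06 for Mcm5, all subunits of the ring (adjusted p from 1.84e-06 to 2.17e-06). Mcmbp, which binds free MCM subunits, had -0.02 (adjusted p = 0.696).

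All 8 of the other firing factors fell in Ep2, with a median of -0.61, where 29.3% of all genes tested were called lower. Recql4, a RecQ helicase that acts in origin firing, fell by 1.53 on the log2 scale (adjusted p = 1.47e-06), more than any of the 10 members, and was the 1 gene of the 42 that fell in Ep1 (-0.38, adjusted p = 0.00917). Wdhd1, which links the helicase to polymerase alpha, fell by 0.64, and the GINS subunit Gins4 by 0.70 (adjusted p = 8.94e-06 and 3.19e-05). Gins3, the remaining GINS subunit, named after its value was seen, fell by 0.23 (adjusted p = 0.0118, and 0.0932 with the gene length correction), so the 4 subunits of the complex ranged from -1.09 to -0.23.

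In Ep2, where 29.3% of all genes tested were called lower, all 5 genes listed for the S phase kinases fell. The list includes Cdc25a, a phosphatase that activates these kinases. Log2 fold changes were -1.02 for cyclin A2 (Ccna2), -1.26 for cyclin E1 (Ccne1), and -0.25 for Cdk2 (adjusted p = 2.71e-06, 4.29e-05, and 0.00135). Among 9 genes that remove or restrain licensing factors, 6 fell, 1 rose, and 2 did not pass. Fbxo5 (Emi1), an inhibitor of the anaphase-promoting complex that destroys geminin, fell by 0.81, Fzr1, an activator of that complex, by 0.90, and the Cdt1 ubiquitin ligase subunit Skp2 by 0.41 (adjusted p = 5.92e-06, 6.11e-05, and 0.000116). Cul1, the scaffold of the ligase that holds Skp2, rose by 0.18 (adjusted p = 0.00469) and had also risen in Ep1 (0.16, adjusted p = 0.043). The other genes that rose in Ep1 were Kat7, Mcm4, and Cul4b, named after their values were seen (log2 fold changes 0.22, 0.18, and 0.19, adjusted p = 0.0181, 0.0218, and 0.0373). The calls of Cul1, Kat7, Mcm4, and Cul4b in Ep1 were lost without Ctrl replicate 2 (adjusted p = 0.159, 0.0701, 0.0843, and 0.135, log2 fold changes 0.14, 0.23, 0.18, and 0.19) and without Ep1 replicate 3 (adjusted p = 0.14, 0.0797, 0.0913, and 0.136, log2 fold changes 0.15, 0.20, 0.17, and 0.16), and each also without 1 or more of the other libraries. All 6 genes of the fork checkpoint fell in Ep2, among them Clspn by 0.80, Timeless by 0.81, and the kinase Chek1 by 0.47 (adjusted p = 3.4e-06, 6.72e-06, and 4.39e-05).

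Genes of later steps moved in the same direction. Over all genes tested, 29.3% were called lower in Ep2 with Ctrl. All 17 genes of DNA synthesis in S phase fell in Ep2, with a median of -0.93, and the polymerase subunit Pold1 had the smallest adjusted p (-1.22, adjusted p = 1.84e-06). All 20 genes of G2 and mitosis fell, with a median of -0.80, and separase (Espl1, -1.18) and the proliferation marker Mki67 (-0.78) shared the smallest adjusted p (1.84e-06 each). In Ep1 the medians were 0.02 and 0.03, with 1 of 17 and 2 of 20 genes lower and none higher. Of all 11727 genes tested, 583 were called lower in Ep1. Markers of S phase and of mitosis thus fell beside the 10 origin genes in Ep2, and the part of cell cycle position in the fall of the members was not tested.

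**Figure D5:**
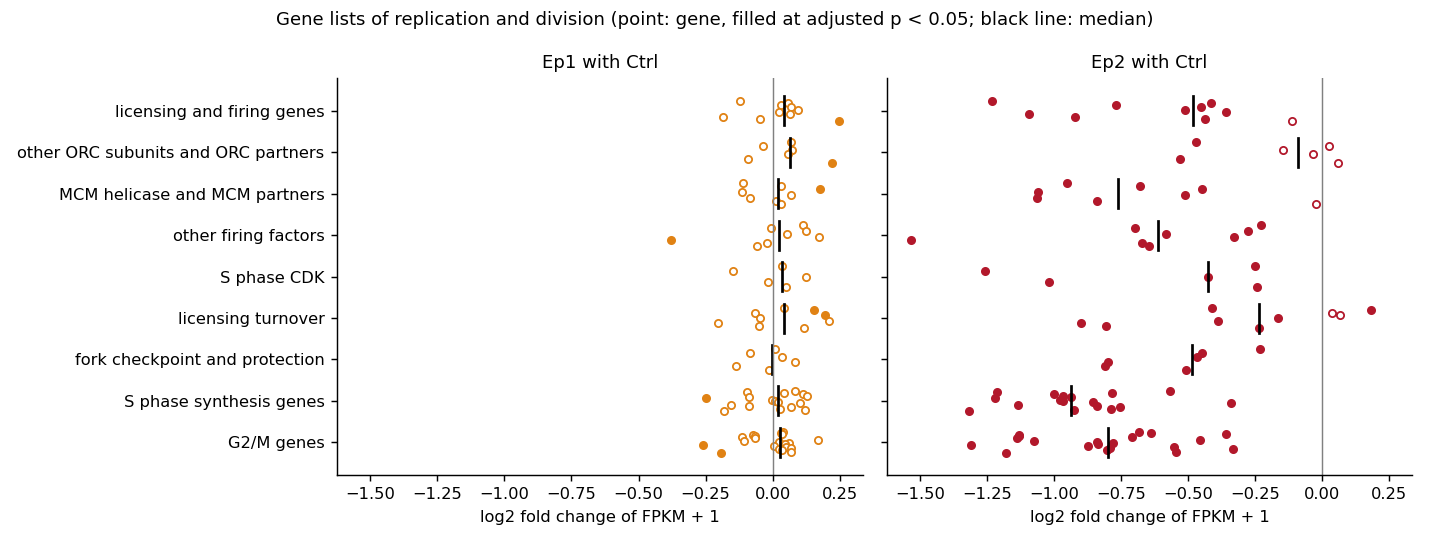
Log2 fold change of FPKM + 1 (x axis) of each gene by list (y axis) in Ep1 with Ctrl, left, and Ep2 with Ctrl, right. Points are genes, filled where the adjusted p was below 0.05, and black lines are medians. In Ep2 the medians run from -0.93 for S phase synthesis genes to -0.09 for the other subunits and partners of the origin recognition complex, and in Ep1 all medians lie near 0.

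The shape of the response across the 9 libraries was alike in most of the members. Pearson's r of each gene's log2(FPKM + 1) with the mean centred profile of the other 9 was 0.95 to 0.99, and 0.71 for Dbf4, over 9 libraries that share groups and scaling. A gene that is lower in Ep2 alone can give a high r here, and 29.3% of all genes tested were called lower in Ep2 with Ctrl. Outside the 10 genes, the profiles most like the members' mean were those of Rrm1 (r = 0.999), a ribonucleotide reductase subunit, Arhgap19 (r = 0.997), Cenpe (r = 0.997) and Ncapg (r = 0.997) of chromosome segregation, and Ccnb1 (r = 0.996), which encodes cyclin B1. Rrm1 went from 29.1 FPKM in Ctrl and 30.03 in Ep1 to 16.5 in Ep2.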

How the data were processed

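The 9 libraries of B.END3 cells were grouped by their names. The authors deposited FPKM values per gene, scaled by gene length and by library size. The submitters' processing notes list Bowtie 0.12.2 and mm8, and the methods name GRCm39, but 99.9% of 36418 listed genes overlap their GRCm38 position, against 12.4% for GRCm39, so positions are given on GRCm38. Culture notes call the cells rat, while the organism label and all gene identifiers are mouse. The counting tool and its strand setting are not given in the sources used here.

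The 11727 genes that reached an FPKM of 1 in 3 or more libraries were tested on log2(FPKM + 1), which understates changes of low genes, with limma 3.58.1 in R 4.3.3 (one fit of 9 libraries, trend and robust, two-sided, Benjamini-Hochberg within a comparison). Calls had an adjusted p below 0.05, and the fold threshold was 0.6 on the log2 scale. No label says that the libraries came from separate cultures, so p-values measure the spread between libraries, which may be technical. FPKM times length was within 0.05 of whole multiples for 100% of values, and intervals from counting cover counting error only. Partner ratios were tested by exact permutation with Benjamini-Hochberg adjustment over 4 pairs.

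The members and lists were chosen with earlier results of these data known. Named genes are all members, the 3 smallest adjusted p per direction of each initiation list in Ep2 with Ctrl, the smallest of the S phase and G2/M lists, neighbours within 1000 bases, and the 5 most alike profiles. The alternatives were median centring, a pseudocount of 0.1, no filter, a filter at 5 FPKM, fits of the compared groups alone, a replicate block, voom on recovered fragments, a gene length correction by loess, and each library left out. The procedure was tested on simulated data. Other software was matplotlib 3.10.9, scipy 1.17.1, pandas 2.3.3, numpy 2.4.6, and Python 3.11.15.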

Additional observations from a re-analysis of the deposited data

How the results depend on the processing

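All 10 members, Dbf4 without a call in Ep2 with Ctrl included, kept their direction and their side of the threshold in all 170 recomputed values of Ep2 with Ctrl and of Ep2 with Ep1. In Ep1 with Ctrl, 157 of 170 values did. There the number of members called was 1, and it was 0 with no filter, with the replicate block, or with the gene length correction, 2 with voom, and 0 to 1 with a library left out. Values of genes not called turned sign for Orc6 without Ep1 replicate 2 (-0.017, up to 0.064 without another library) and for Cdc7 without Ep1 replicate 1 (0.019, down to -0.083 without another). Other genes not called in Ep2 with Ctrl did so too: Mcmbp (-0.023) with median centring (0.024), the gene length correction (0.0082), or without Ctrl replicate 1 (0.0096, down to -0.045 without another library), Orc5 with median centring (0.012), and Orc3 without Ctrl replicate 2 (-0.0026, up to 0.044 without another). The causes were not tested.

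Same-numbered libraries deviated from their group means with correlations of -0.06 to 0.07 over 9 pairs, against -0.11 to 0.15 for different numbers, so the numbers were not taken to pair the libraries. With the replicate block, the exact permutation test gave an adjusted p of 0.111 for every ratio, at unaltered differences between Ep2 and Ctrl of 0.37 for Cdt1 over Gmnn, -0.38 for Cdc7 over Dbf4, -0.073 for Gins1 over Gins2, -0.23 for Orc1 over Orc6, -0.60 for Cdc45 over Ufd1, -0.40 for Orc1 over Prpf38a, -0.68 for Orc6 over Vps35, and -1.23 for Gins1 over Abhd12. With a library left out, these differences ranged from 0.30 to 0.44, from -0.47 to -0.33, from -0.12 to -0.018, from -0.27 to -0.17, from -0.65 to -0.56, from -0.44 to -0.36, from -0.73 to -0.63, and from -1.28 to -1.15. Leaving out a library did not alter the smallest p that the test allows, so the calls lost that way depended on single libraries. The replicate block, which exchanges groups only within a replicate number, allows far fewer arrangements. These could still give an adjusted p below 0.05, so with an adjusted p of 0.111 the ratio calls were lost under this setting.

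Over all genes, the 1324 calls in Ep1 became 396 with no filter, 2162 with only the groups compared, 2019 with voom, and 191 to 2183 with a library left out. The 93 calls past the fold threshold became 147 with the smaller pseudocount, 41 with no filter, 173 with voom, and 33 to 112 with a library left out. In Ep2 with Ctrl 1075 became 1616 with the smaller pseudocount and 1649 with voom, and in Ep2 with Ep1 692 became 1101 and 1115. Of the calls in Ep2 with Ep1, 2950 were lower and 2206 higher, and with median centring 2383 and 2974. In Ep2 with Ctrl, 3436 were lower and 2800 higher, and with median centring 2971 and 3311. In Ep1, 583 were lower and 741 higher, and with voom 1096 and 923. Counting alone gives the members a coefficient of variation of 1.76% (Cdt1 in Ctrl) to 5.81% (Orc1 in Ep2), and the observed one ran from 0.549% (Gmnn in Ctrl) to 16.5% (Cdc6 in Ep2), above or below the counting value depending on gene and group.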
